A study of Mus musculus with 6 samples.

Results

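The genes described here encode the secreted and membrane-bound metalloproteases that cut the extracellular matrix, together with their tissue inhibitors. They were taken from the count table by symbol, as every Mmp gene (matrix metalloproteinases), every Adamts gene (a disintegrin and metalloproteinase with thrombospondin motifs) and every Timp gene (tissue inhibitors of metalloproteinases). This gave 46 of the 23420 genes listed, of which 23 are Mmp, 19 Adamts and 4 Timp genes. The 23 members with 10 or more counts in at least 3 of the 6 libraries are reported by their levels, and comprise 11 Mmp, 9 Adamts and 3 Timp genes. All 23 also passed the filter on low counts of the statistical test, and none of the other 23 did.

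MMPs are made as inactive proenzymes whose propeptide is removed outside the cell or by furin-like proteases on the way to the surface. The latter holds for the membrane-type enzymes and for some secreted ones such as MMP11. ADAMTS enzymes are secreted, and among them are the aggrecan- and versican-cleaving proteoglycanases and the enzymes that trim procollagen. TIMPs bind the zinc-containing active site and block it, and TIMP2 also bridges MMP14 to pro-MMP2 at the cell surface, where pro-MMP2 is activated. Mesenchymal stromal cells (MSCs) lay down and remodel the bone marrow matrix and are known as abundant producers of MMP2, MMP14 and TIMPs.

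RNA-seq libraries of polyadenylated RNA came from bone marrow-derived MSCs flushed from femurs of female C57BL/6 mice 6 to 8 weeks old and transduced at passage 5. The 3 libraries labelled Ctl MSC came from cells given the empty AP2 retroviral backbone, and the 3 labelled MSC-TPr from cells given the AP2 construct that codes for the thymoproteasome subunits β1i (Psmb9), β2i (Psmb10) and β5t (Psmb11). Both constructs belong to the same eGFP-marked backbone. The sources do not say whether the libraries of a group came from separate cultures or animals, so the p-values measure the spread between these libraries, which may be technical.

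Between 16158756 and 22158887 counts per library fell on genes, so that 3 counts, taken as the smallest detectable amount, equalled 0.139 to 0.181 CPM (counts per 1000000 counts on genes, with library sizes scaled by edgeR's TMM method). For none of Psmb9, Psmb10 and Psmb11 did every library labelled MSC-TPr exceed every library labelled Ctl MSC. Psmb11 had 2, 4 and 2 counts for Ctl MSC 1, 2 and 3, and 4, 6 and 1 for MSC-TPr 1, 2 and 3. It was not tested between the labels, and so near the floor of 3 counts the order of its libraries says little. No library exceeded 6 counts, those given the construct that codes for β5t included. Whether reads from the construct would be counted on this gene was not tested. Psmb9 ranged from 10 to 56 counts. Psmb10, for example, was at 27.8, 8.81 and 8.38 CPM for Ctl MSC 1, 2 and 3 and at 8.97, 17.3 and 15.2 CPM for MSC-TPr 1, 2 and 3. Each direction below is therefore a direction between library labels. The libraries numbered 1 stood apart from the others of their label, and in cell division genes each resembled the other label. Over 18 cell division genes, log2(CPM + 1) averaged 6.70 in Ctl MSC 1 but 3.73 in both Ctl MSC 2 and 3, and it was 3.75 in MSC-TPr 1 but 6.64 and 6.66 in MSC-TPr 2 and 3. Results are given over all 6 libraries and again without both libraries numbered 1. Whether the labels of the libraries numbered 1 were exchanged was not tested, and the labels were kept as given. An exchange would change what each fold change over 6 libraries compares. The part that this split plays in any result below was not tested. Of 10 MSC markers, 9 were tested and the summed level of the list ran from 2152 CPM in MSC-TPr 1 to 13992 CPM in MSC-TPr 3, while Thy1 (CD90) had 1 count in Ctl MSC 1 and 0 in the other libraries. The haematopoietic marker Ptprc (CD45) had 0 counts in 5 libraries, and the summed level of 9 haematopoietic and macrophage markers ran from 11.2 to 15.8 CPM except for 17.6 CPM in MSC-TPr 1. Within that list the 3 markers tested all had both libraries numbered 1 over 2-fold away from their label in opposite directions. Without those libraries all 3 were called, 2 higher and 1 lower in MSC-TPr. Over all genes tested, 9.32% were split in this way and 40.0% were called without those libraries. All 4 neutrophil markers stayed under 1 CPM in each library.

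The promoters of 4 members are shown because these genes carry the contrasts described below. Mmp13 and Mmp3 lie in the same gene cluster and share promoter motifs but not a pattern across libraries, and Timp1 and Mmp11 varied most between the libraries of a label among the members with a mean level over 10 RPKM (CPM per kilobase of exon). Each sequence is the 250 bases before the start site, 5′ to 3′ on the strand of the gene, from RefSeq on GRCm38.p6. The start site used for Mmp11 lies inside the longer gene span given with its values below. Capitals mark the AP-1 motif TGANTCA in Mmp13 and Mmp3 and the GC box GGGCGG, on either strand, in Timp1 and Mmp11.
Mmp13, chr9:7272264-7272513, plus strand: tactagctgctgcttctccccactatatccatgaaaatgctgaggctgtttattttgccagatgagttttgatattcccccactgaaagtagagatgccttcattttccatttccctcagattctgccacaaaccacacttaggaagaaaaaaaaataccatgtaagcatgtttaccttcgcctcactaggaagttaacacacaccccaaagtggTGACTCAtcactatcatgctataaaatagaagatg
Mmp3, chr9:7445572-7445821, plus strand: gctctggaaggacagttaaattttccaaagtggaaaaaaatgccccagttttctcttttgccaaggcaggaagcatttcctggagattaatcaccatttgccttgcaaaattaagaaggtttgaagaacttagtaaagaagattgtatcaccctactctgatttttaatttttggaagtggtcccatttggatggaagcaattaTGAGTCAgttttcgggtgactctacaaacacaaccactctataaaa
Timp1, chrX:20869916-20870165, plus strand: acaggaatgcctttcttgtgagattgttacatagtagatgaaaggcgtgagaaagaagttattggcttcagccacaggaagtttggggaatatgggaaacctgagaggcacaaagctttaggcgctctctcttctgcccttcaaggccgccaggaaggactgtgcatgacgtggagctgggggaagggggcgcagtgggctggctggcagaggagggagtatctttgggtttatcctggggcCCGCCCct
Mmp11, chr10:75932503-75932752, minus strand: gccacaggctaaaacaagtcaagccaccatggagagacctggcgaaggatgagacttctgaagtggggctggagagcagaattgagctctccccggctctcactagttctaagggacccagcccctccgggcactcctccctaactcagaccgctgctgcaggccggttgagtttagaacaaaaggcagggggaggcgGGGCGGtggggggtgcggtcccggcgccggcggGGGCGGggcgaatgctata
Promoters of this length were found for 14 of the 23 members. The motif TGANTCA, searched on both strands, was present in those of Mmp13 and Mmp3 alone among them, 35 and 46 bases before the start site, and in 6.75% of all 32851 promoters. Both genes also held TATAAA, 16 and 7 bases before the start site, as did Adamts1, against 12.37% of all promoters. The GC box was present in 10 of the 14 members and in 32.74% of all promoters, and it overlapped neither of the other motifs in the printed sequences. A match describes the letters of the window only.

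Per length, the inhibitors were expressed above the proteases on average. Timp1, Timp3 and Timp2 had the highest mean levels of the 23 members over the 6 libraries, at 161, 150 and 147 RPKM, followed by Mmp14 (47.2), Mmp11 (34.2), Mmp13 (33.7), Mmp2 (27.4), Mmp19 (13.7), Mmp23 (9.10) and Adamts1 (8.70). Neighbours in this order were not separated, since the range of Timp1 over libraries (53.3 to 306 RPKM) enclosed that of Timp2 (90.3 to 234) and of Timp3 (119 to 195), and Mmp11 (11.8 to 59.0) enclosed Mmp13 (26.5 to 42.3). Nor was Timp1 above Mmp14 in every library, with 53.3 against 53.7 RPKM in Ctl MSC 2 and 54.1 against 55.3 RPKM in Ctl MSC 3. The lowest of the 23 were Adamts7 (0.437) and Mmp17 (0.113 RPKM). Of the members under the reporting threshold, 5 had no count in any library (Mmp1a, Mmp1b, Mmp7, Adamts17 and Adamts19), and the highest count of any other was 16, for the macrophage elastase gene Mmp12 in MSC-TPr 3. The gelatinase gene Mmp9 had 0 to 2 counts per library and Timp4 had 0 or 1, where a count of 0 allows up to 3 counts.

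**Figure D1:**
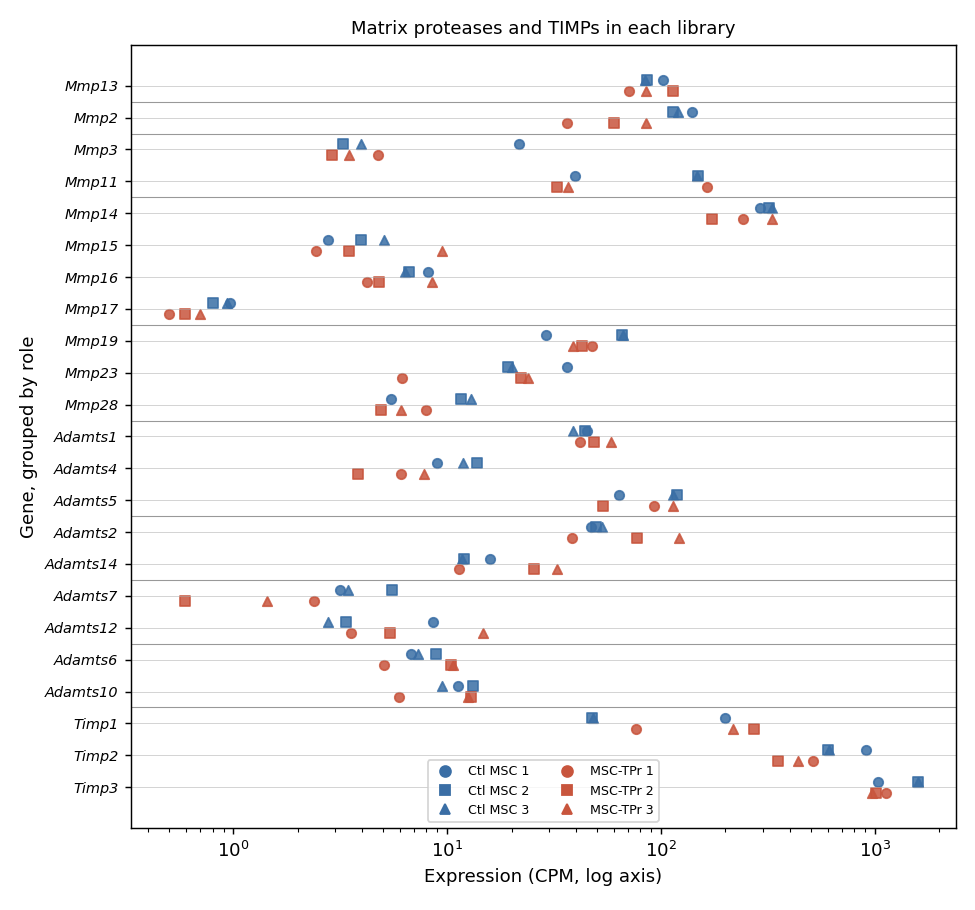
Expression of the 23 reported members in each of the 6 libraries, in CPM on a log axis, with genes grouped by role, colours for the library labels and symbols for the replicate numbers. Timp2 and Timp3 lie at the right, while Timp1 overlaps Mmp14. For Timp1 and Mmp11 the circle (library 1) of each label lies nearer to the other label's squares and triangles than to its own.

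No member was called between the labels over all 6 libraries, where a call needed an adjusted p under 0.05 and a log2 change of 0.5 or more either way in edgeR's quasi-likelihood test. Of all 11974 genes tested, 0.426% were called, 0.0251% as higher and 0.401% as lower in MSC-TPr. DESeq2 called 0 members as well, against 5.28% of the 12934 genes to which it gave an adjusted p. An unadjusted p under 0.05 was reached by 4 members with either tool (17.4% of the 23: Mmp2, Adamts4, Adamts7 and Timp2), where edgeR gave 15.0% of all genes. The median log2 fold change (MSC-TPr over Ctl MSC) of the 23 was −0.32, against 0.01 over all genes tested. It was −0.53 for the 11 Mmp, 0.19 for the 9 Adamts and −0.44 for the 3 Timp genes. In 5 members (21.7%) the highest library labelled MSC-TPr was below the lowest labelled Ctl MSC, and in 0 members above, while 12.1% of all genes lay below and 10.6% above. Those 5 were Mmp2, Mmp17, Adamts4, Adamts7 and Timp2. RNA from bulk cultures cannot tell fewer cells of a kind from less RNA per cell.

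Without both libraries numbered 1, which left 2 libraries per label, 12 of the 23 members were called (52.2%). This reads against 40.0% of the 12122 genes tested in that fit. Of these, 8 were lower and 4 higher in MSC-TPr, where the background was 19.4% lower and 20.6% higher. The 8 lower members were Mmp2, Mmp11, Mmp19, Mmp28, Adamts4, Adamts7, Timp2 and Timp3, and the 4 higher members were Adamts2, Adamts12, Adamts14 and Timp1. In 4 of the 12 (Mmp2, Adamts4, Adamts7 and Timp2) the labels also did not overlap over all 6 libraries, and in the other 8 they did. The common dispersion, edgeR's estimate of the variation between libraries of a label, was 0.0168 in that fit, against 0.124 over 6 libraries. Among the libraries kept, cell division genes averaged 3.73 in both Ctl MSC libraries and 6.64 and 6.66 in MSC-TPr 2 and 3. Label and cell division level therefore cannot be told apart in that fit.

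Collagenases start the cleavage of fibrillar collagen, and Mmp13 (collagenase-3) was the only one of its class reported. It gave 102, 85.9 and 84.1 CPM for Ctl MSC 1, 2 and 3, against 70.9, 113 and 85.4 CPM for MSC-TPr 1, 2 and 3. The ranges of the labels overlapped, and its log2 fold change was −0.01 (SE 0.208, edgeR adjusted p = 0.985) over 6 libraries and 0.22 (SE 0.157, edgeR adjusted p = 0.279) without the libraries numbered 1. Mmp8, the neutrophil collagenase, had 1 to 4 counts per library.

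Mmp2 (gelatinase A, on chromosome 8 of mm10 from 92827291 to 92853420) cuts basement membrane collagen and denatured collagen. It gave 139, 114 and 120 CPM for Ctl MSC 1, 2 and 3, against 36.2, 60.2 and 84.7 CPM for MSC-TPr 1, 2 and 3. The lowest Ctl MSC library stood above the highest MSC-TPr library. The group means were 124 ± 13.1 and 60.4 ± 24.2 CPM (SD, n = 3 each). The log2 fold change was −1.04 (SE 0.308) and did not pass after adjustment over all genes (edgeR adjusted p = 0.213, DESeq2 adjusted p = 0.060). Without the libraries numbered 1 it was −0.68 (SE 0.178, edgeR adjusted p = 0.0237). Within MSC-TPr, library 1 was the lowest.

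Timp2 (on chromosome 11 from 118301069 to 118355740) encodes the inhibitor that takes part in pro-MMP2 activation. It gave 913, 601 and 607 CPM for Ctl MSC 1, 2 and 3, against 515, 352 and 439 CPM for MSC-TPr 1, 2 and 3. All MSC-TPr libraries lay below all Ctl MSC libraries, although Ctl MSC 1 was 1.51 times the mean of Ctl MSC 2 and 3. The means were 707 ± 178 and 435 ± 81.9 CPM (SD, n = 3 each). The log2 fold change was −0.70 (SE 0.244, edgeR adjusted p = 0.263), and −0.61 without the libraries numbered 1 (SE 0.147, edgeR adjusted p = 0.0184).

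Mmp14 (MT1-MMP, on chromosome 14 from 54431612 to 54445364) is the membrane-anchored collagenase and activator of pro-MMP2. It was the protease with the highest mean level, with Ctl MSC libraries at 291, 320 and 330 CPM and MSC-TPr libraries at 242, 174 and 332 CPM. MSC-TPr 3 reached the highest Ctl MSC library, and the log2 fold change, at −0.33 (SE 0.248, edgeR adjusted p = 0.574), became −0.36 (SE 0.287, edgeR adjusted p = 0.339) without the libraries numbered 1. The ratio of Mmp2 to Mmp14 in RPKM was 0.843, 0.628 and 0.642 in the Ctl MSC libraries and 0.264, 0.612 and 0.452 in the MSC-TPr libraries. That of Timp2 to Mmp14 was 4.79, 2.87 and 2.82 against 3.26, 3.09 and 2.03. The first ratio did not overlap between the labels, with 0.612 and 0.628 as the nearest values, and the second did overlap.

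The other membrane-type genes were low. Mmp17 (MT4-MMP, a lipid-anchored member) gave 0.967, 0.801 and 0.938 CPM for Ctl MSC 1, 2 and 3, against 0.498, 0.592 and 0.696 CPM for MSC-TPr 1, 2 and 3, which is 9 to 17 counts per library. The labels did not overlap, and the log2 fold change was −0.59 (SE 0.349, edgeR adjusted p = 0.484) over 6 libraries and −0.42 (SE 0.352, edgeR adjusted p = 0.366) without the libraries numbered 1. Mmp15 and Mmp16, the MT2- and MT3-MMP genes, ranged from 2.44 to 9.46 CPM and from 4.21 to 8.49 CPM over the libraries, with overlapping labels.

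**Figure D2:**
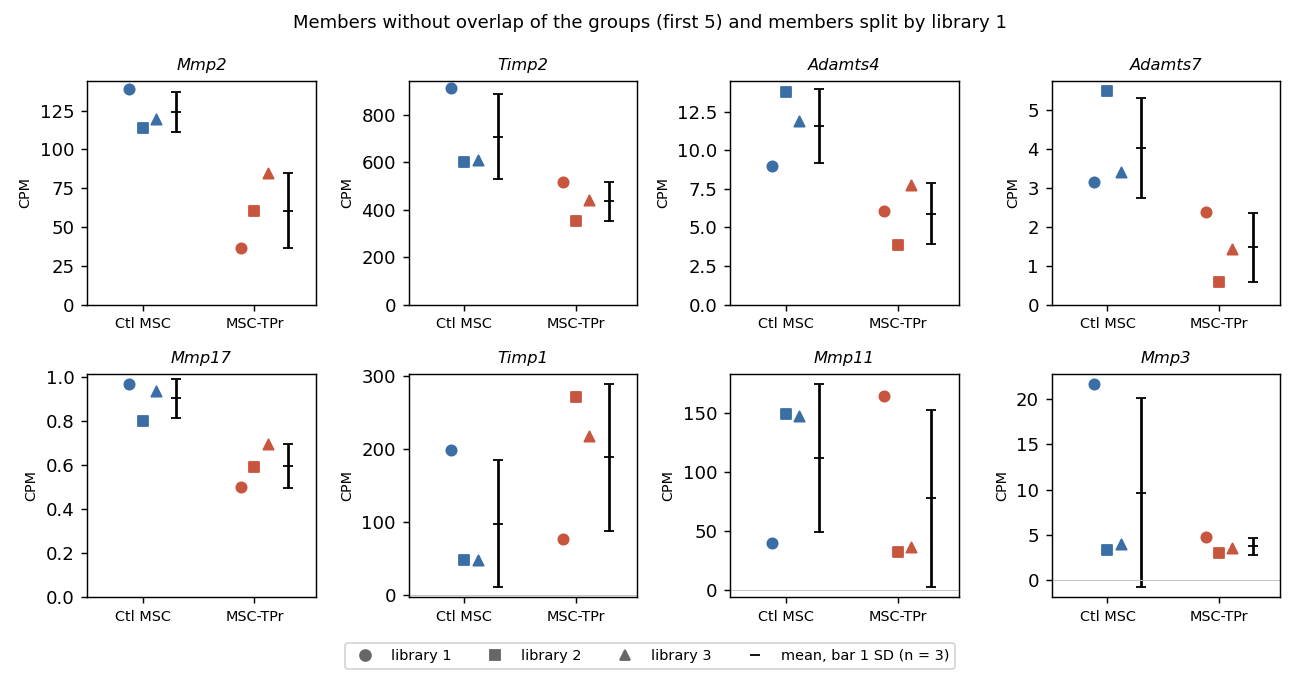
CPM of 8 members in each library, with circles, squares and triangles for libraries 1, 2 and 3 and black bars for the mean ± 1 SD (n = 3). In the first 5 panels all MSC-TPr points lie below all Ctl MSC points, while in Timp1 and Mmp11 library 1 of each label lies on the other label's side and in Mmp3 only Ctl MSC 1 stands out at 21.8 CPM.

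Mmp11 (stromelysin-3, on chromosome 10 from 75923222 to 75936496) is activated inside the cell by furin and is known from stromal fibroblasts. It gave 39.8, 149 and 147 CPM for Ctl MSC 1, 2 and 3, against 164, 32.7 and 36.6 CPM for MSC-TPr 1, 2 and 3. Ctl MSC 1 was low and MSC-TPr 1 high, so that the labels overlapped entirely. Over 6 libraries the log2 fold change was −0.53 (SE 0.766, edgeR adjusted p = 0.797), whereas without the libraries numbered 1 it was −2.09 (SE 0.120, edgeR adjusted p = 0.00016). Its exons share 155 bases with Chchd10 on the opposite strand. The libraries were made with a stranded kit, but the strand setting of the counting was not given in the sources used here. Chchd10 itself gave 4.71, 82.9 and 91.4 CPM for Ctl MSC 1, 2 and 3, against 8.47, 0.946 and 0.464 CPM for MSC-TPr 1, 2 and 3, and its part in the Mmp11 counts was not tested.

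Mmp3 (stromelysin-1), a broad-spectrum enzyme that also activates other proMMPs, falls outside the rule for full values and was singled out after its values were seen. It gave 21.8, 3.26 and 3.97 CPM for Ctl MSC 1, 2 and 3, against 4.76, 2.90 and 3.48 CPM for MSC-TPr 1, 2 and 3, so that the difference lay in Ctl MSC 1 alone, at 6.02 times the mean of Ctl MSC 2 and 3. Its log2 fold change, at −1.38 over 6 libraries (SE 0.762, edgeR adjusted p = 0.452), was 0.04 when Ctl MSC 1 was left out and −0.17 without both libraries numbered 1. Mmp13, which also holds TGANTCA in the promoter printed above, was in Ctl MSC 1 at 1.20 times its own mean of Ctl MSC 2 and 3. The part of this motif in the level of either gene was not tested.

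Among the remaining Mmp genes, Mmp19 (on chromosome 10 from 128790910 to 128800824), a secreted MMP of basement membrane substrates, gave 28.9, 65.6 and 66.5 CPM for Ctl MSC 1, 2 and 3, against 47.6, 42.8 and 38.9 CPM for MSC-TPr 1, 2 and 3. Ctl MSC 1 was lower than every other library, and the log2 fold change moved from −0.32 (SE 0.326, edgeR adjusted p = 0.700) over 6 libraries to −0.69 (SE 0.116, edgeR adjusted p = 0.0054) without the libraries numbered 1. Mmp23, which encodes a membrane-bound enzyme (on chromosome 4 from 155650655 to 155653384), measured 36.4, 19.2 and 20.0 CPM against 6.15, 22.1 and 23.8 CPM. Here the libraries numbered 1 were the highest and the lowest of all, and the log2 fold change turned from −0.54 (SE 0.531, edgeR adjusted p = 0.687) to 0.23 (SE 0.127, edgeR adjusted p = 0.182) without them. Mmp28 (epilysin) ranged from 4.91 to 13.0 CPM, with a log2 fold change of −0.66 (edgeR adjusted p = 0.468) over 6 libraries and −1.15 (edgeR adjusted p = 0.0047) without the libraries numbered 1. Mmp19 shares 789 exon bases with Tmem198b and Mmp28 466 with 1700020L24Rik, in both cases on opposite strands, and these partners ranged from 5.31 to 14.4 CPM and from 1.36 to 5.02 CPM.

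Of the ADAMTS proteoglycanases, Adamts4 (aggrecanase-1, on chromosome 1 from 171250421 to 171260637) gave 9.0, 13.8 and 11.9 CPM for Ctl MSC 1, 2 and 3, against 6.09, 3.85 and 7.75 CPM for MSC-TPr 1, 2 and 3. The labels did not overlap, and the log2 fold change was −0.97 (SE 0.323, edgeR adjusted p = 0.246), or −1.13 (SE 0.320, edgeR adjusted p = 0.0315) without the libraries numbered 1. Adamts1 (on chromosome 16 from 85793827 to 85803113), which cleaves versican and aggrecan, was the steadiest of the 23 across libraries, with its highest library (58.5 CPM) at 1.51 times its lowest (38.8 CPM). Its log2 fold change was 0.22 (SE 0.177, edgeR adjusted p = 0.613), or 0.38 (SE 0.143, edgeR adjusted p = 0.0737) without the libraries numbered 1. Its chromosomal neighbour Adamts5 (aggrecanase-2) ranged from 53.8 to 119 CPM with overlapping labels.

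Adamts7 (on chromosome 9 from 90163069 to 90208071), a protease of cartilage oligomeric matrix protein, gave 3.14, 5.50 and 3.42 CPM for Ctl MSC 1, 2 and 3, against 2.38, 0.592 and 1.44 CPM for MSC-TPr 1, 2 and 3. It had the largest range of the 23, the highest library being 9.30 times the lowest, and the labels did not overlap. The log2 fold change was −1.45 (SE 0.530, edgeR adjusted p = 0.282), and −2.08 (SE 0.441, edgeR adjusted p = 0.0119) without the libraries numbered 1. Adamts7 shares 122 exon bases with Tbc1d2b on the opposite strand, which itself ranged from 56.3 to 58.6 CPM for Ctl MSC and from 28.6 to 51.3 CPM for MSC-TPr, and the part of those reads was not tested. Adamts12, its closest relative, measured 8.58, 3.36 and 2.76 CPM against 3.54, 5.38 and 14.7 CPM, with overlapping labels, and gave 0.69 (edgeR adjusted p = 0.677) and 1.73 (edgeR adjusted p = 0.0296) in the same fits.

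The procollagen N-proteinases remove the amino-terminal propeptide of fibrillar procollagens. Adamts2 gave 46.8, 49.8 and 53.0 CPM for Ctl MSC 1, 2 and 3, against 38.3, 77.6 and 121 CPM for MSC-TPr 1, 2 and 3, and Adamts14 measured 15.8, 12 and 11.7 CPM against 11.3, 25.3 and 32.6 CPM. In both genes MSC-TPr 1 was the lowest of all 6 libraries, while MSC-TPr 2 and 3 were the highest. The log2 fold changes over 6 libraries were 0.66 (SE 0.388, edgeR adjusted p = 0.480) and 0.81 (SE 0.394, edgeR adjusted p = 0.393), and without the libraries numbered 1 they were 0.95 (edgeR adjusted p = 0.0152) and 1.29 (edgeR adjusted p = 0.0023). Adamts3, the remaining member of this class, had 0 to 6 counts per library. Adamts6 and Adamts10, which act on fibrillin-rich matrix, were not called in either fit, with log2 fold changes over 6 libraries of 0.19 and −0.11, and MSC-TPr 1 was again the lowest library of each. Mmp28, Adamts12, Adamts2 and Adamts14 are given in this detail after their values were seen.

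**Figure D3:**
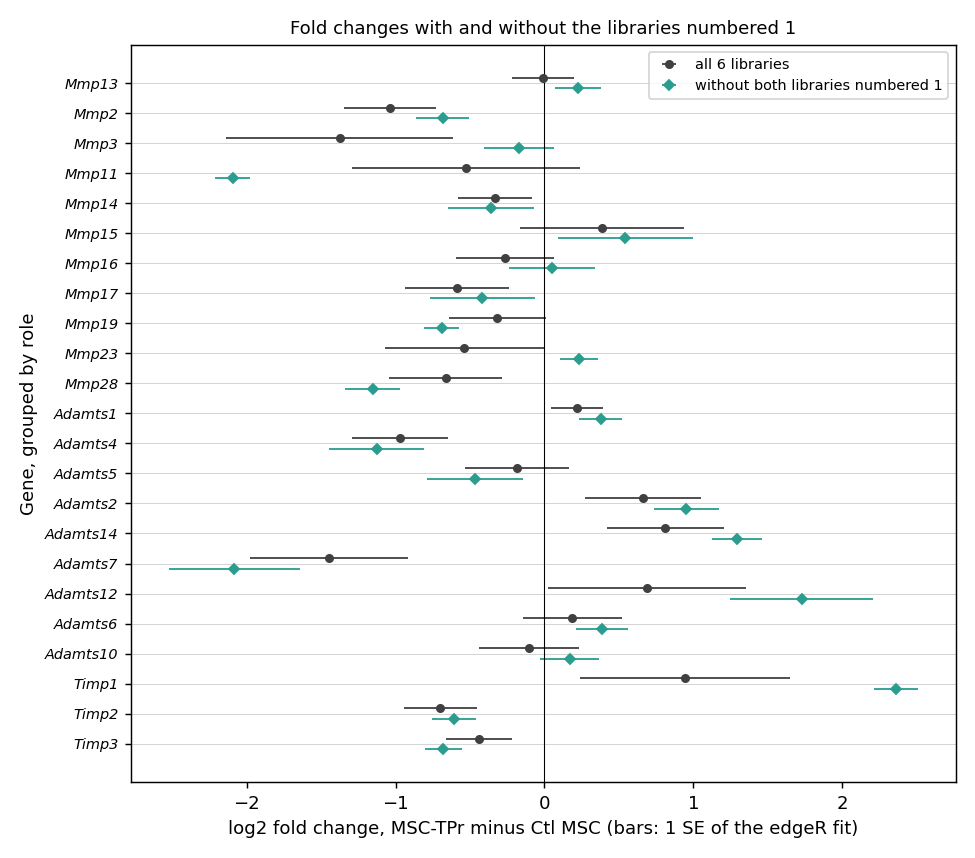
Log2 fold changes of the 23 members (MSC-TPr over Ctl MSC) with 1 SE of the edgeR fit, over all 6 libraries (grey circles) and without both libraries numbered 1 (green diamonds). Mmp11 moves from −0.53 to −2.09 and Timp1 from 0.95 to 2.36, while Mmp2, Timp2 and Mmp17 lie below 0 in both.

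Among the inhibitors, Timp1 (on chromosome X from 20870166 to 20874735), a secreted inhibitor of most soluble MMPs, gave 198, 47.4 and 48.0 CPM for Ctl MSC 1, 2 and 3, against 76.2, 271 and 218 CPM for MSC-TPr 1, 2 and 3. Ctl MSC 1 was 4.15 times the mean of Ctl MSC 2 and 3, and MSC-TPr 1 was 0.312 of the mean of MSC-TPr 2 and 3. The log2 fold change was 0.95 (SE 0.706, edgeR adjusted p = 0.574) over 6 libraries and 2.36 (SE 0.149, edgeR adjusted p = 0.00022) without the libraries numbered 1. Timp3 (on chromosome 10 from 86300372 to 86349506), the matrix-bound inhibitor that also blocks ADAM17 and aggrecanases, measured 1030, 1590 and 1589 CPM against 1127, 1015 and 968 CPM. Ctl MSC 2 and 3 were the highest libraries and Ctl MSC 1 fell among the MSC-TPr libraries, and the log2 fold change was −0.44 (SE 0.222, edgeR adjusted p = 0.413), or −0.68 (SE 0.122, edgeR adjusted p = 0.0068) without the libraries numbered 1. Timp3 shares 1733 exon bases with Syn3 on the opposite strand, which did not exceed 2.33 CPM.

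Timp1 and Mmp11 were the members in which both libraries numbered 1 lay over 2-fold outside the other libraries of their label, in opposite directions. That is 2 of 23 (8.7%), against 9.32% of all genes tested. Ctl MSC 1 alone was over 2-fold outside in 6 members (26.1%, background 17.5%), which were Mmp3, Adamts12 and Timp1 upward and Mmp11, Mmp19 and Mmp28 downward. MSC-TPr 1 was over 2-fold outside in 7 members (30.4%, background 14.9%), upward in Mmp11 and downward in Mmp23, Adamts2, Adamts14, Adamts6, Adamts10 and Timp1. The remaining members kept within 2-fold of at least 1 library of their label.

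Proteases were then set against inhibitors as sums of RPKM within each library, as a description without a test. The 20 proteases summed to 209, 240 and 241 RPKM for Ctl MSC, against 185, 158 and 200 RPKM for MSC-TPr. Each MSC-TPr library lay below each Ctl MSC library. This came with lower Mmp sums (181, 206 and 210 against 159, 127 and 153 RPKM), while the Adamts sums overlapped (27.8, 33.7 and 31.2 against 26.0, 31.6 and 46.8 RPKM). Mmp14, Mmp11, Mmp13 and Mmp2 together made up 62.9% to 74.1% of the protease sum in each library.

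The 3 inhibitors summed to 584, 403 and 405 RPKM for Ctl MSC, against 357, 520 and 477 RPKM for MSC-TPr, and the labels overlapped. The inhibitor sum was above the protease sum in all libraries, by 2.79, 1.68 and 1.68 times for Ctl MSC and by 1.93, 3.28 and 2.38 times for MSC-TPr. The log2 ratio of proteases to inhibitors averaged −0.99 ± 0.424 for Ctl MSC and −1.31 ± 0.386 for MSC-TPr (SD, n = 3 each), a difference of −0.31 that is smaller than either SD. It was 0.22 when Timp1 was left out of the sum and 0.14 when levels were not divided by length, so its sign depended on these choices. Without both libraries numbered 1 it was −0.74, and leaving out each library in turn gave −0.56 (without Ctl MSC 1) to −0.11 (without MSC-TPr 2). In the makeup of the inhibitor sum, the Timp1 share set library 1 of each label apart from libraries 2 and 3, in opposite directions. Timp1 made up 38.2%, 13.2% and 13.4% of the inhibitor sum for Ctl MSC 1, 2 and 3, against 24.1%, 58.7% and 51.4% for MSC-TPr 1, 2 and 3. Timp2 made up 40.1%, 38.3% and 38.5% against 37.1%, 17.3% and 23.6%.

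**Figure D4:**
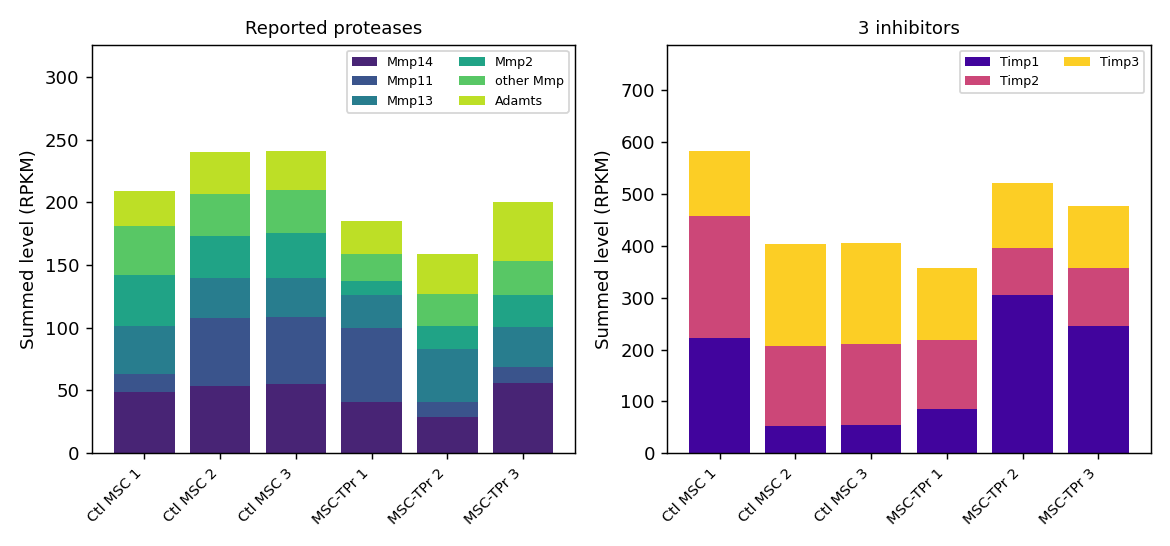
Summed RPKM of the 20 reported proteases (left, with Mmp14, Mmp11, Mmp13 and Mmp2 shown singly) and of the 3 reported TIMP genes (right) in each of the 6 libraries. The inhibitor bars are the taller in every library, and the Timp1 segment is largest in MSC-TPr 2 (306 RPKM).

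Regulators of these proteases were examined as a list of 20 genes, of which 13 were tested. None was called over 6 libraries by edgeR, while 2 had an unadjusted p under 0.05 (15.4%) and DESeq2 called 1, Serpine2. Of all genes, edgeR called 0.426%, 15.0% had an unadjusted p under 0.05 and DESeq2 called 5.28%. Their median log2 fold change was −0.07. Reck, a membrane-anchored MMP inhibitor, gave 8.70, 7.10 and 8.33 CPM for Ctl MSC 1, 2 and 3, against 5.09, 2.43 and 5.43 CPM for MSC-TPr 1, 2 and 3, without overlap (log2 fold change −0.89, SE 0.345, edgeR adjusted p = 0.298). Serpine2, an inhibitor of thrombin and plasminogen activators, measured 2.30, 1.92 and 1.27 CPM against 0.609, 0.414 and 0.417 CPM, also without overlap (log2 fold change −1.92, SE 0.395, edgeR adjusted p = 0.116, DESeq2 adjusted p = 0.012). Furin, which activates MMP11, MMP14 and ADAMTS proenzymes, ranged from 64.3 to 95.7 CPM with overlapping labels.

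The plasminogen activators generate the plasmin that activates several proMMPs. In each label they set library 1 apart from libraries 2 and 3, but in opposite directions. Plau gave 87.2, 7.21 and 7.67 CPM for Ctl MSC 1, 2 and 3, against 2.55, 45.8 and 47.9 CPM for MSC-TPr 1, 2 and 3. Plat measured 45.1, 3.69 and 3.14 CPM against 4.37, 42.6 and 50.7 CPM. In both genes, as in Timp1, Ctl MSC 1 was nearer to MSC-TPr 2 and 3, and MSC-TPr 1 nearer to Ctl MSC 2 and 3, than to the others of its label. Without the libraries numbered 1, 6 of the 13 regulators were called higher, Plau and Plat among them, and 1 lower (Serpine2), which is 53.8% of the list against 40.0% of all genes in that fit.

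Of the Mmp genes, 10 form 1 cluster on chromosome 9 of mm10 from 7272514 to 7699585, and only Mmp13 and Mmp3 of them were reported. Of 11 other genes within 1 Mb of it, 9 were tested and 2 were called over 6 libraries by edgeR, against 0.426% of all genes. Pdgfd, a growth factor gene before the cluster, gave 9.55, 3.79 and 4.25 CPM for Ctl MSC 1, 2 and 3, against 63.2, 155 and 123 CPM for MSC-TPr 1, 2 and 3 (log2 fold change 4.28, SE 0.521, edgeR adjusted p = 0.035). Birc3, an inhibitor of apoptosis gene after it, measured 78.4, 54.4 and 56.7 CPM against 2.44, 3.25 and 3.85 CPM (log2 fold change −4.31, SE 0.273, edgeR adjusted p = 0.0081). Dync2h1, Tmem123 and Birc2 were also lower in every library labelled MSC-TPr, with log2 fold changes of −1.21, −0.34 and −0.89 and edgeR adjusted p from 0.183 to 0.392. In all, 7 of the 9 had a log2 fold change below 0 (median −0.34), and 4 (44.4%) were lower without overlap, against 12.1% of all genes. Mmp13 was at −0.01, Dcun1d5 at −0.12 and Mmp3 at −1.38, the last with overlapping labels. Within the cluster, Mmp10 (stromelysin-2, under the reporting threshold and named after its values were seen) had 1, 1 and 2 counts in Ctl MSC and 5, 11 and 9 counts in MSC-TPr.

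**Figure D5:**
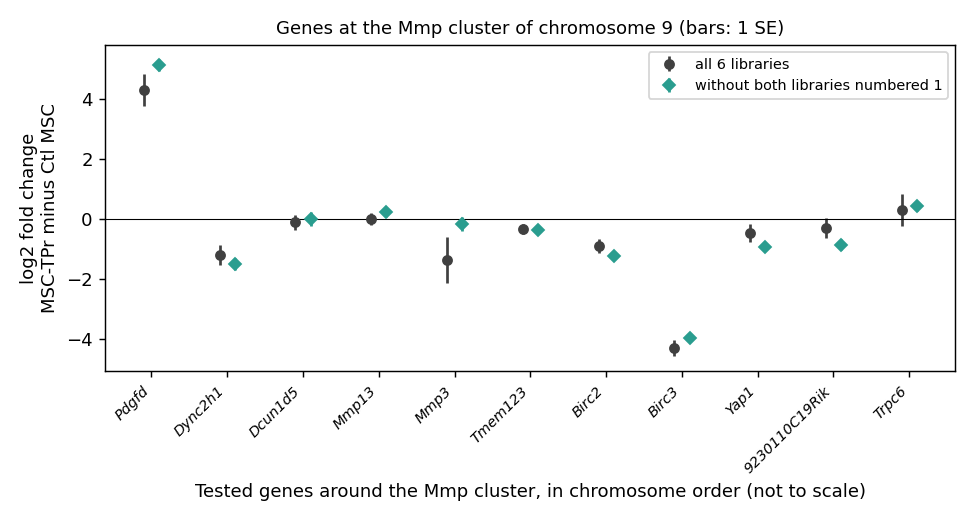
Log2 fold changes (MSC-TPr over Ctl MSC) with 1 SE of the 11 tested genes at the Mmp cluster, in chromosome order and not to scale, over 6 libraries and without both libraries numbered 1. Pdgfd (4.28) and Birc3 (−4.31) stand apart, with Mmp13 near 0 between them.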

How the data were processed

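Counts per gene and library were analysed as deposited. The authors obtained them with Htseq-count from reads aligned to mm10, without normalization, and the submitters' processing notes also name CASAVA 1.8.2, Trimmomatic 0.35 and TopHat2 2.1.0. Rows that name no gene, 13.77% to 20.77% of the total per library, were left out. Counts were tested in R 4.3.3 with edgeR 4.0.16 (TMM, filterByExpr, quasi-likelihood test, no term but group, Benjamini-Hochberg adjustment over 11974 genes). A standard error is the log2 fold change divided by the square root of F. CPM use TMM-scaled library sizes, and RPKM divide them by the union of GENCODE M21 exons (GRCm38), so they depend on the annotated isoforms. DESeq2 1.42.0 (Wald test) was the alternative tool, beside other normalization, filters, thresholds, a replicate block and left-out libraries. Both tools were also run on simulated counts that did not hold the split of the libraries numbered 1, so those runs say nothing about its effect.

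Named in full were members that were called, without overlap of the labels, among the 10 highest by RPKM or a Timp gene. The members and lists were chosen with earlier results of these data known. Intervals from counts cover counting error only. The closest libraries of a label, Ctl MSC 2 and 3, had a chi-square per gene of 4.98, above sampling noise, so none was a copy. Some genes outside the members are not reported here.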

Additional observations from a re-analysis of the deposited data

How the results depend on the processing

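No member was called under any alternative over 5 or 6 libraries, and 12 were called without both libraries numbered 1. Over all genes, 51 were called with 6 libraries, 31 with at least 10 counts in every library, 683 with DESeq2, 0 with the replicate block and 4854 without both libraries numbered 1, and leaving out each library in turn gave 0 to 108 (0 without Ctl MSC 2, Ctl MSC 3 or MSC-TPr 3, 1 without MSC-TPr 2 and 108 without Ctl MSC 1). The labels share replicate numbers, and deviations of same-numbered libraries from the mean of their label correlated at −0.765 to −0.594. The opposite split of the libraries numbered 1 enters these values, so they cannot tell whether the numbers pair the libraries. With the replicate block, 776 genes had an unadjusted p under 0.05 in edgeR. DESeq2 with 6 libraries called 244 genes higher and 439 lower, edgeR 3 and 48. The difference in log2 ratio of proteases to inhibitors was −0.31 and became 0.14 in CPM, 0.22 without Timp1 and −0.74 without both libraries numbered 1. It was −0.56 without Ctl MSC 1, −0.49 without MSC-TPr 1, −0.19 without Ctl MSC 2 or Ctl MSC 3 and −0.11 without MSC-TPr 2.

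Of the 23 members, 15 kept their direction in all alternatives. Without both libraries numbered 1 the direction turned for Mmp13 (0.22), Mmp16 (0.049), Mmp23 (0.23) and Adamts10 (0.17). Fits that each left out 1 library turned it for 6 members, with ranges of −0.21 to 0.13 (Mmp13), −1.79 to 0.042 (Mmp3), −0.40 to 0.72 (Mmp15), −0.43 to 0.067 (Adamts5), −0.13 to 1.37 (Adamts12) and −0.28 to 0.18 (Adamts10). Members under about 1 CPM, such as Mmp17, rest on 9 to 17 counts per library. The causes were not tested.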

Other observations

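A further list held 16 ADAM and ADAMTS-like genes, the membrane-anchored relatives of the ADAMTS enzymes and their catalytically inactive secreted relatives. Of these, 12 were tested and edgeR called 0, with 2 at an unadjusted p under 0.05 (16.7%), and DESeq2 called 1, Adam22. The shares of all genes were 0.426%, 15.0% and 5.28%. Adam22, a non-catalytic ADAM, gave 4.11, 10.9 and 11.5 CPM for Ctl MSC 1, 2 and 3, against 1.22, 1.83 and 1.86 CPM for MSC-TPr 1, 2 and 3, without overlap (log2 fold change −2.43, SE 0.460, edgeR adjusted p = 0.0936). The sheddase gene Adam10 also did not overlap, at 168 to 171 CPM against 132 to 161 CPM (log2 fold change −0.23, edgeR adjusted p = 0.483). Adam12, named after its values were seen, gave 15.2, 1.6 and 1.54 CPM for Ctl MSC 1, 2 and 3, against 0.886, 58.8 and 66.0 CPM for MSC-TPr 1, 2 and 3, so that MSC-TPr 1 was the lowest library of all and the labels overlapped.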
